A study of Homo sapiens with 6 samples.

Results

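The genes described here lie in a stretch of chromosome 12, from 50 to 60 Mb on GRCh38, and were studied in U2OS cells, a human osteosarcoma line. Members were the protein-coding genes of GENCODE 29 with a start in that interval and an FPKM (fragments scaled to exon length and sequencing depth) of at least 1 in at least 2 of 6 libraries. The HOXC genes, GTSF1, CDK2, CDK4, ERBB3, ITGA5, ITGA7, PRIM1, TIMELESS, STAT2 and MMP19 were left out by name. This gave 122 members of 15001 tested genes, 12152 of them protein-coding. The interval itself was chosen by the difference in log2(FPKM + 1) between the genotypes within each replicate label, in these same libraries. Every difference below is therefore a description of the values that selected the interval, and none of them is a test of it. Genes were named by a rule on size of difference, abundance within 9 role lists and position at the edges; others, such as SP1, RARG, NAB2, RNF41, DIP2B, DAZAP2, CALCOCO1, AGAP2, PA2G4 and POU6F1, were chosen after their values were seen.

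The 6 libraries were poly(A) RNA of G3C2, a U2OS line labelled ZFP36L1 deficient after CRISPR/Cas9 targeting (3 libraries), and of WT U2OS cells (3 libraries). Both were growing in log phase at 65 to 75% confluency. The titles name no edited line other than G3C2, so the effect of the labelled deficiency and any other feature of that line cannot be told apart. The sources used here do not give where the gene was edited. Each genotype had replicates labelled 1, b and c, with replicate 1 in a first deposited table and b and c in a second, and a pair below is the G3C2 and the WT library of the same label. ZFP36L1 binds AU-rich elements in mRNA and brings in the enzymes that shorten the poly(A) tail. Its own mRNA had 238, 105 and 82.4 FPKM in G3C2 replicates 1, b and c, against 165, 57.1 and 128 FPKM in WT, which is no check of the deficiency at the protein level. Of the mesenchymal markers, VIM, COL1A1, SPARC, RUNX2, CDH11 and THY1 were above 1 FPKM in every library, while COL1A2 and ALPL stayed under 1. The T cell gene CD3E was at 0 in every library, and the epithelial gene EPCAM lay between 3.05 and 18.7 FPKM.

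Genes along this stretch of 12q do not form a pathway. They include a cluster of type II keratins together with KRT18, which build the intermediate filaments of epithelial cells, and a dense run of housekeeping genes for ribosomal proteins, the mitochondrial ATP synthase, RNA-binding proteins and vesicle transport. Neighbouring genes share a chromosome segment and often start sites and regulatory elements. The copy number of the interval in either line was not measured in the files used here.

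Start-site sequence is shown for 5 members that differed little, moderately or much between the lines, and no link between sequence and difference was tested. They are DIP2B near the start of the interval, whose differences were 0.11, 0.07 and -0.04, SP1 and PCBP2 in its middle, LRP1, whose difference changed sign between replicates, and MARCH9, whose difference exceeded 1 in all 3 pairs. Each is the 250 bases before the RefSeq start (GRCh38.p14, plus strand), 5′ to 3′, with capitals marking the GC box GGGCGG or its reverse complement CCGCCC, a motif bound by SP-family factors. The windows are chr12:50504735-50504984, chr12:53379926-53380175, chr12:53451852-53452101, chr12:57128233-57128482 and chr12:57754853-57755102, in the order printed.
DIP2B: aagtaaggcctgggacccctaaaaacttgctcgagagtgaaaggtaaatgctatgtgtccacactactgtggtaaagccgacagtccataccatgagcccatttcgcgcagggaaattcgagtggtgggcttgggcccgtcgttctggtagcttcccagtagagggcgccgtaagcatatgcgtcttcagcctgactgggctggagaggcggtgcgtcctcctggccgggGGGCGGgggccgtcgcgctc
SP1: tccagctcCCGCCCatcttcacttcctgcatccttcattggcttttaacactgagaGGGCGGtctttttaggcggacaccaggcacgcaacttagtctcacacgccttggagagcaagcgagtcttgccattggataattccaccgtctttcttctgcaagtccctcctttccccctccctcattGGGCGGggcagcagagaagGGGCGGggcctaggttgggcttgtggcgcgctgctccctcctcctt
PCBP2: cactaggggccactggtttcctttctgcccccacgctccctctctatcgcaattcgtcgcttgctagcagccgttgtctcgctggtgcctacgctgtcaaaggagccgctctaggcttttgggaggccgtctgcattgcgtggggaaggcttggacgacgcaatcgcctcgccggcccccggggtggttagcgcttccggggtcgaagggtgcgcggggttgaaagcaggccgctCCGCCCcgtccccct
LRP1: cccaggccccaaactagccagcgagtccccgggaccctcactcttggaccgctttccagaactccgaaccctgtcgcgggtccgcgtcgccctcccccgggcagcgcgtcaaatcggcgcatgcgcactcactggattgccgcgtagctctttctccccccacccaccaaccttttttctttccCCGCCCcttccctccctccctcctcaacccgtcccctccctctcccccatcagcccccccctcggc
MARCH9: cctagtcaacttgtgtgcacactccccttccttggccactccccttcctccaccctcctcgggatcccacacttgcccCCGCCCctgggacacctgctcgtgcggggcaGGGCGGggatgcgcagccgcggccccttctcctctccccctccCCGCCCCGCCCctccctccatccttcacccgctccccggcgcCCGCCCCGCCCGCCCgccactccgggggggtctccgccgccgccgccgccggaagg
The MARCH9 window held 7 GC-box matches, overlapping ones included, the SP1 window 4, and the DIP2B, PCBP2 and LRP1 windows 1 each. Of the 122 members, 89 were matched to a RefSeq entry. Searching both strands, the GC box was present before 62 of those 89 (69.7%), against 69.5% of the 9073 tested protein-coding genes with an entry. CCAAT stood before 37 members (41.6%, against 34.9%), TATAAA before 4 (4.49%, against 4.75%) and the cyclic AMP response element TGACGTCA before 2 (2.25%, against 2.98%). The members' start sites thus held these 4 motifs at shares close to those of all tested protein-coding genes, members included, with CCAAT furthest apart.

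Most members were somewhat higher in G3C2. The median difference in log2(FPKM + 1), G3C2 minus WT, was 0.33 in replicate 1, 0.27 in replicate b and 0.41 in replicate c. The same median over all tested protein-coding genes was -0.07, -0.01 and 0.10, which puts the members 0.40, 0.29 and 0.31 above it. The share of members above 0 was 80.3%, 81.1% and 76.2% in replicates 1, b and c, against 42.0%, 46.7% and 57.1% of all tested protein-coding genes. Against recovered reads, the FPKM totals of replicate c raised its differences, as given with the depth below. Averaged over the 3 pairs, the median member differed by 0.29, or 1.22-fold on the FPKM + 1 scale, and the SD between the 3 pair medians was 0.07. The shift was thus small for a single gene and shared by many. In bulk RNA, more cells that express a gene and more RNA per cell cannot be told apart. From the 10th to the 90th percentile the members' mean differences ran from -0.09 to 0.74, against -0.39 to 0.41 for all tested protein-coding genes.

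**Figure D1:**
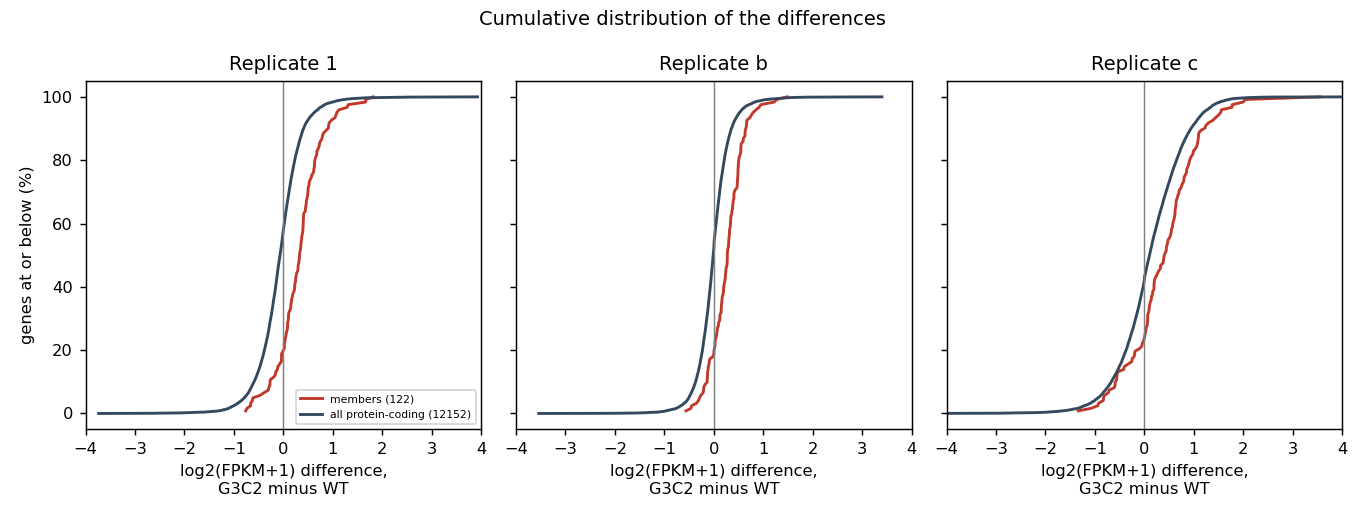
Cumulative share of genes (y axis, %) at or below each difference in log2(FPKM + 1), G3C2 minus WT (x axis), for the 122 members in red and the 12152 tested protein-coding genes in dark blue, with 1 panel per replicate label and a grey line at 0. The red curve lies to the right of the blue one over most of its range in all 3 panels, with medians of 0.33, 0.27 and 0.41.

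Of the 122 members, 65 (53.3%) were higher in G3C2 in all 3 pairs, and the background is 18.8% of tested protein-coding genes. Only 3 were lower in all 3 pairs, namely LETMD1, METTL7B and POU6F1 (2.46%, background 18.7%), and 54 were of mixed sign or at 0 in a pair. In 56 members (45.9%, background 15.9%) the G3C2 libraries lay above the WT libraries without overlap in each table, and in POU6F1 alone they lay below (background 15.0%). A difference of at least 0.25 in all 3 pairs was seen in 32 members and of at least 0.5 in 8. Just 2 members, KRT81 and MARCH9, reached 1, or 2-fold on the FPKM + 1 scale, in all 3. Shares over all tested genes were not counted at these 3 sizes, so nothing is read from those counts. Of the members lower throughout, POU6F1, a homeodomain factor, had 1.76, 0.555 and 0.286 FPKM in G3C2 replicates 1, b and c, against 3.37, 0.797 and 0.716 FPKM in WT, levels near the threshold.

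In the limma fit over all 15001 genes, no member passed an adjusted p of 0.05 in either direction (background 0.02% higher in G3C2 and 0.0267% lower, or 3 and 4 genes). An unadjusted p under 0.05 was reached by 40 members higher in G3C2 and by POU6F1 among those lower, with 6.19% and 7.43% of all genes as background. Without replicate c, 24 members passed the adjusted threshold, all higher in G3C2, among 448 genes called higher (2.99%). Without replicate b, KRT81 and MARCH9 passed, among 60 genes (0.4%). limma-voom on the reads recovered from the second table called none and left 14 members higher at an unadjusted p under 0.05. For that fit the share of all genes was not counted. Since the interval was picked on this contrast, the other counts are printed beside their background and nothing is read from any of them.

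Along the chromosome, the higher values did not fill the interval evenly. Among the 10 members from 50 to 51 Mb, the median difference was -0.05, -0.13 and 0.30 in replicates 1, b and c, and none was higher in all 3 pairs. The next megabase, also with 10 members, had medians of -0.05, 0.01 and 0.08. In each megabase from 52 to 58 Mb, the medians were above 0 in every pair. Beside the counts by megabase stand 53.3% of all members and 18.8% of all tested protein-coding genes higher in all 3 pairs. The 20 members from 53 to 54 Mb had medians of 0.44, 0.36 and 0.53, and 15 of them were higher in all 3 pairs. The 24 members from 56 to 57 Mb had 0.38, 0.30 and 0.71, with 18 higher in all 3. The 30 members from 57 to 58 Mb had 0.21, 0.31 and 0.15, with 15 higher in all 3. Beyond 58 Mb only LRIG3 and SLC16A7 were expressed, and neither was higher in all 3 pairs.

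With the border set at ACVR1B, a receptor of the activin type, after the values were seen, the 19 members before it had medians of -0.12, -0.11 and 0.12, and 2, DAZAP2 and SLC4A8, were higher in all 3 pairs. The 102 members from ACVR1B to LRIG3 had medians of 0.38, 0.31 and 0.48, and 63 were higher in all 3. As whole sets, tested protein-coding genes of the flanks showed less of the shift. The 57 genes from 40 to 50 Mb had medians of -0.17, -0.19 and 0.08, with 4 higher in all 3 pairs (7.02%). The 32 genes from 60 to 70 Mb had -0.01, 0.03 and 0.32, with 12 higher (37.5%), above the background of 18.8%. This second flank was uneven. Its 6 genes from 64 to 65 Mb had 0.18, 0.23 and 0.45. The 3 from 65 to 66 Mb had 0.31, 0.33 and 0.32, and the 6 from 68 to 69 Mb had -0.25, -0.33 and 0.29. Higher values thus did not all end with the interval. All 540 tested protein-coding genes of chromosome 12 outside the interval had medians of -0.06, -0.03 and 0.10, and 20.7% were higher in all 3 pairs. A stretch of chromosome 14 from VIPAS39 onward, also known from these libraries to be higher in G3C2, had larger medians of 0.70, 0.54 and 0.87 over 112 genes, 84.8% of them higher in all 3 pairs. Differences between these stretches were not tested, because the interval was chosen on them. Within the interval, the 27 tested genes of other types, such as antisense RNAs and pseudogenes, had medians of 0.06, 0.16 and 0.04. Of these, 5 were higher in all 3 pairs (18.5%). That share lies near the 18.8% of all tested protein-coding genes and below the 53.3% of the members. The share over all tested genes of these other types was not counted.

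**Figure D2:**
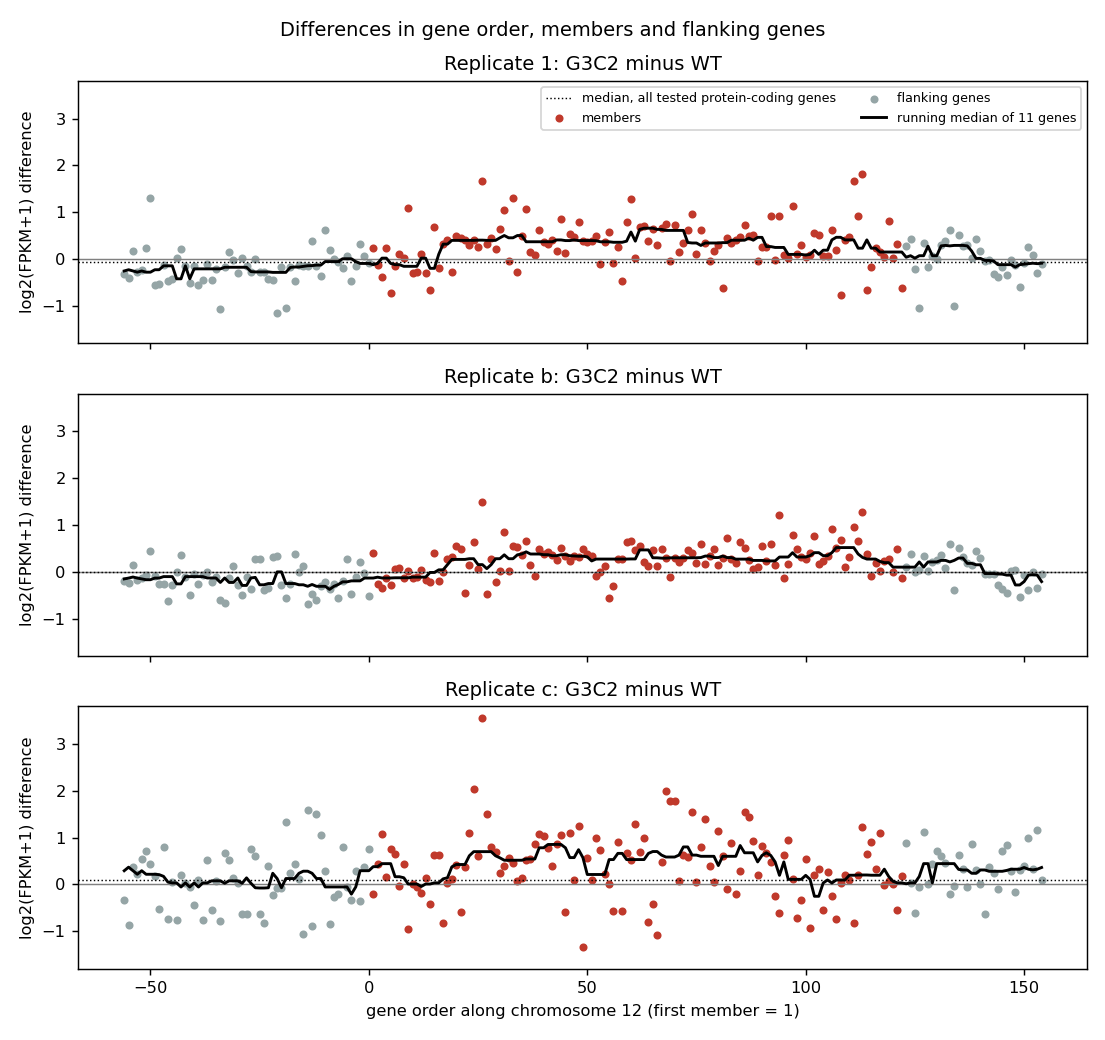
Difference in log2(FPKM + 1), G3C2 minus WT (y axis), of each member and each tested protein-coding gene of the flanks in its order along chromosome 12 (x axis, first member = 1), with 1 panel per replicate label. Members are red, genes of the flanks from 40 to 50 and from 60 to 70 Mb are grey, the black line is a running median of 11 genes, the grey line marks 0 and the dotted line is the median of all tested protein-coding genes. The running median lies near or below 0 over the first members, stands above 0 from about the ACVR1B position through most of the interval, and returns towards 0 at its far end; replicate c scatters most.

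The members at the ends of the interval show where the rule stops. The first is ASIC1 (ENSG00000110881, 50057548 to 50083611, plus strand), a proton-gated sodium channel, and the last is SLC16A7 (ENSG00000118596, 59596067 to 59789855, plus strand), a monocarboxylate transporter. Their differences were 0.23, 0.40 and -0.21 for ASIC1 and -0.63, -0.13 and 0.17 for SLC16A7, so both changed sign between pairs. The same held for SMARCD1 (-0.12, -0.27 and 0.44), a subunit of SWI/SNF chromatin remodelling complexes, and LRIG3 (0.33, 0.48 and -0.55), a membrane protein with leucine-rich repeats. Just outside, the nearest tested protein-coding genes were RACGAP1 (-0.09, -0.51 and 0.75), a regulator of cytokinesis, and USP15 (0.28, 0.10 and 0.89), a deubiquitinase. At the FPKM threshold, RDH5 and AVIL were just inside and the keratin gene KRT86 and the readthrough gene BLOC1S1-RDH5 just outside. AVIL, which encodes the actin-binding protein advillin, had 1.08, 0.371 and 0.294 FPKM in G3C2 replicates 1, b and c, against 1.02, 0.177 and 0.307 FPKM in WT, and RDH5, a retinol dehydrogenase, had 0.504, 0.632 and 0.357 FPKM in G3C2 replicates 1, b and c, against 1.08, 0.35 and 1.0 FPKM in WT. The differences were 0.04, 0.22 and -0.02 for AVIL and -0.47, 0.27 and -0.56 for RDH5, both of mixed sign.

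Of 224 protein-coding genes of the interval in both tables, 19 were left out by name and 83 were under the FPKM threshold, 31 of these at 0 in all 6 libraries. Among the members, 105 had at least 1 FPKM in all 6 libraries and 17 fell below 1 in at least 1. None passed the threshold through G3C2 libraries alone, and 1, RDH5, passed through WT libraries alone. POU6F1, KRT7, HSD17B6, AVIL and ATP23 passed only through the first table. ATP23, a metallopeptidase of the mitochondrial intermembrane space, had 21.4 FPKM in G3C2 and 21.1 FPKM in WT for replicate 1 and was listed at 0 in all 4 libraries of the second table. Summed, the members made up 2.10%, 1.85% and 2.21% of the FPKM of nuclear protein-coding genes in G3C2 replicates 1, b and c, against 1.5%, 1.45% and 1.31% in WT.

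Levels per length spanned from under 1 to over 1000 FPKM. By the mean over the 6 libraries, RPL41 (881 FPKM), HNRNPA1 (783), ATP5F1B (597), KRT81 (302) and CD63 (264) were the most abundant. This ranking pools 2 tables of unlike scale. HNRNPA1 was above RPL41 in both libraries of the first table and below it in all 4 of the second, and the mean of KRT81 rests largely on the 1139 FPKM of G3C2 replicate c. In the 41 members with the highest means, 30.4 FPKM and above, 29 were higher in all 3 pairs, against 25.9% of all tested protein-coding genes of that class, and the median differences were 0.46, 0.29 and 0.66. In the 40 members between 8.94 and 28.1 FPKM, 24 were higher in all 3 pairs, against 20.5% of that class, with medians of 0.33, 0.23 and 0.49. In the 41 members from 0.542 to 8.76 FPKM, 12 were, against 13.8% of that class, with medians of 0.23, 0.27 and 0.06. Both the members' counts and the shares over all genes were higher at higher levels. Replicate c carried a dependence on level over the whole transcriptome: all tested protein-coding genes in the same level classes had medians there of 0.56, 0.18 and -0.09 from high to low. In replicate 1 those medians were -0.02, -0.07 and -0.11, and in replicate b -0.05, -0.02 and 0.00. The members of the high class therefore stood well apart from genes of like level in replicates 1 and b, and only slightly apart in replicate c. Large differences of abundant members in replicate c, given below for ribosomal, mitochondrial and chaperone genes, stand beside that 0.56, and the part of level in them was not tested.

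MARCH9 and KRT81 differed most. MARCH9 (ENSG00000139266, 57755098 to 57760407, plus strand), a membrane-bound E3 ubiquitin ligase of the MARCH family (RefSeq symbol MARCHF9), had 24.5, 14.2 and 13.0 FPKM in G3C2 replicates 1, b and c, against 6.26, 5.31 and 4.99 FPKM in WT. All 3 G3C2 libraries lay above all 3 WT libraries, even across the 2 separately scaled tables. Its differences were 1.82, 1.27 and 1.22, with a mean of 1.44 ± 0.33 (SD over the 3 pairs). It shares no exon position with another annotated gene. Its start-site sequence, printed above, held the most GC-box matches of the 5 shown, and a link of these with its difference was not tested.

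KRT81 (ENSG00000205426, 52285913 to 52291534, minus strand), a type II keratin of hair and an intermediate filament protein, had 237, 198 and 1139 FPKM in G3C2 replicates 1, b and c, against 73.9, 70.1 and 96.2 FPKM in WT. Its differences were 1.66, 1.48 and 3.55, with a mean of 2.23 ± 1.15 (SD over the 3 pairs). The G3C2 libraries were higher in each table, and G3C2 replicate c stood far above the other 5 libraries. KRT81 belongs to a group of near-identical hair keratin genes with KRT83 and KRT86, and the sources used here do not give how shared reads were assigned. KRT86 had 0.607, 0.929 and 1.74 FPKM in G3C2 replicates 1, b and c, against 0.132, 0.507 and 0.115 FPKM in WT, and KRT83 stayed under 0.1 FPKM throughout. KRT80 (ENSG00000167767, 52168996 to 52192000, minus strand), a type II keratin of epithelia, had 91.4, 65.6 and 184 FPKM in G3C2 replicates 1, b and c, against 69.1, 42.0 and 44.0 FPKM in WT. Its differences were 0.40, 0.63 and 2.04, with a mean of 1.02 ± 0.89 (SD over the 3 pairs). As for KRT81, the G3C2 libraries were the higher ones in each table and replicate c was the most separated.

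The keratin list held 6 members, and 4 of them, KRT80, KRT7, KRT81 and KRT8, were higher in all 3 pairs. Beside this count and those of the other role lists below stand 53.3% of all members and 18.8% of all tested protein-coding genes. No list was tested, and nothing about a role is read from its count. The list's median differences were 0.36, 0.17 and 1.15 in replicates 1, b and c. KRT8 (ENSG00000170421, 52897187 to 52949954, minus strand), a type II keratin of simple epithelia and the partner of KRT18, had 169, 29.8 and 37.7 FPKM in G3C2 replicates 1, b and c, against 123, 24.4 and 21.2 FPKM in WT. Its differences were 0.45, 0.28 and 0.80, with a mean of 0.51 ± 0.27 (SD over the 3 pairs). KRT18, the only type I keratin in the cluster, had differences of 0.21, -0.22 and 0.70, so the usual partners did not move alike in replicate b. KRT75 had 0.32, -0.46 and 1.5, also with a lower value in G3C2 replicate b. The epithelial cadherin CDH1 and the splicing factor ESRP1, which mark epithelial cells, were at or below 1.01 and 0.269 FPKM in every library. EPCAM, the other gene of that marker list, had 7.08, 3.29 and 3.29 FPKM in G3C2 replicates 1, b and c, against 18.7, 6.94 and 3.05 FPKM in WT. It was lower in G3C2 in replicates 1 and b, where KRT80, KRT81 and KRT8 were higher, and its part in the keratin values was not tested. KRT8 and KRT18 overlap each other on opposite strands and have 50 and 67 pseudogenes of their name in the tables, so their split is uncertain.

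**Figure D3:**
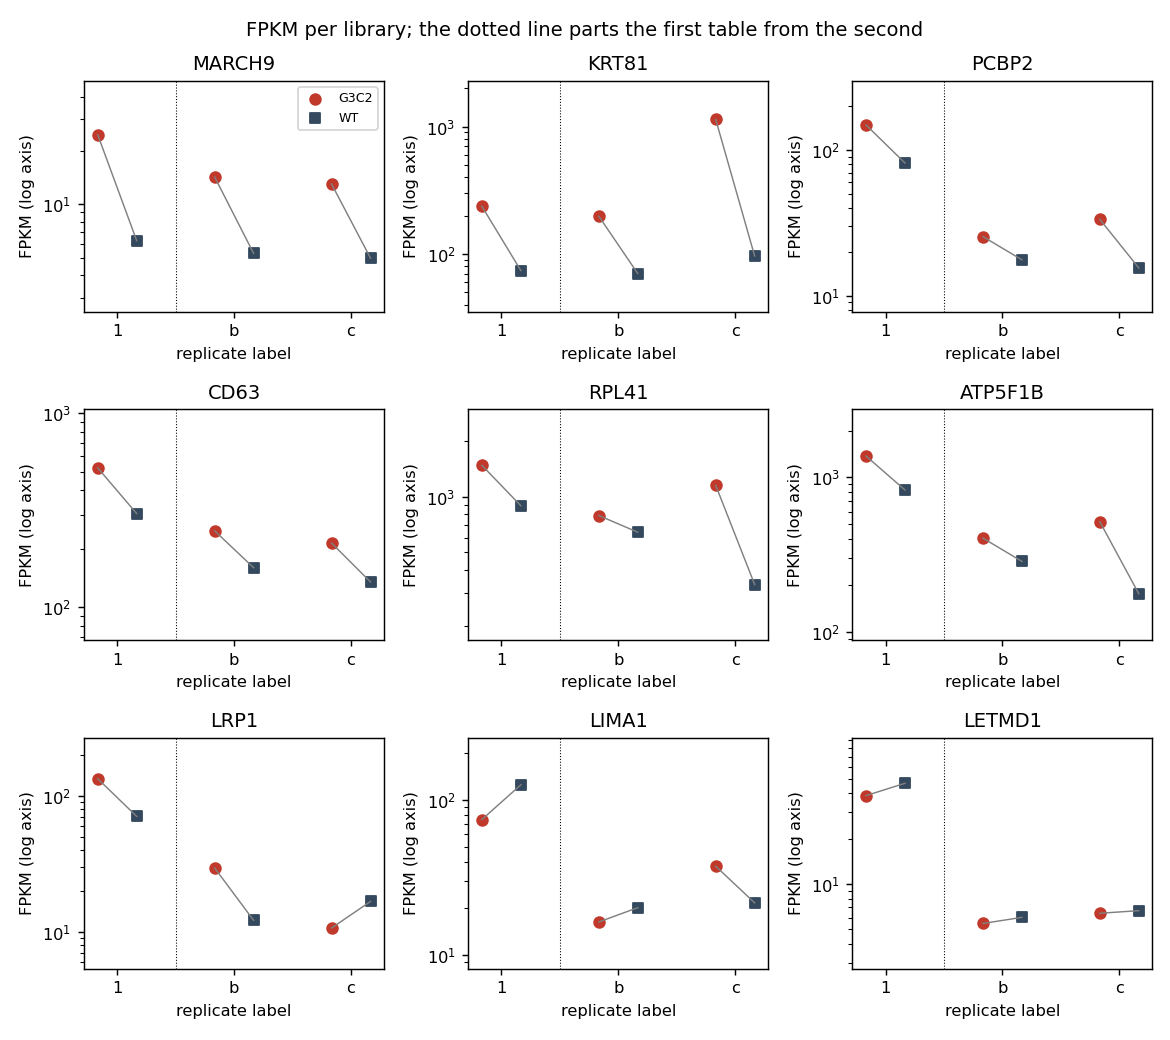
FPKM (y axis, log scale) of 9 members in each library, with G3C2 as red circles to the left of WT as dark blue squares, joined within each replicate label (x axis), and a dotted line between the first and the second table. The red circle is the higher one in all 3 pairs for MARCH9, KRT81, PCBP2, CD63, RPL41 and ATP5F1B and the lower one in all 3 for LETMD1, while LRP1 and LIMA1 turn round in replicate c.

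Of the 16 members for translation and RNA binding, 10 were higher in all 3 pairs and none lower, with median differences of 0.47, 0.19 and 0.95. PCBP2 (ENSG00000197111, 53452102 to 53481162, plus strand), a poly(C)-binding protein that regulates mRNA stability and translation, had 148, 25.5 and 33.4 FPKM in G3C2 replicates 1, b and c, against 81.3, 17.7 and 15.5 FPKM in WT. Its differences were 0.86, 0.50 and 1.06, with a mean of 0.81 ± 0.28 (SD over the 3 pairs). The G3C2 libraries were higher in each table, with the smallest gap in replicate b. Its exons overlap those of MAP3K12 on the opposite strand. RPL41 (ENSG00000229117, 56116586 to 56117943, plus strand), a ribosomal protein gene for the large subunit, had 1474, 790 and 1150 FPKM in G3C2 replicates 1, b and c, against 892, 642 and 335 FPKM in WT. Its differences were 0.72, 0.30 and 1.78, with a mean of 0.93 ± 0.76 (SD over the 3 pairs). RPS26 (ENSG00000197728, 56041351 to 56044697, plus strand), a ribosomal protein gene for the small subunit, had 344, 119 and 232 FPKM in G3C2 replicates 1, b and c, against 204, 96.9 and 57.4 FPKM in WT. Its differences were 0.75, 0.30 and 2.0, with a mean of 1.02 ± 0.88 (SD over the 3 pairs). Both ribosomal protein genes showed the same order of pairs, with the widest gap in replicate c and the narrowest in b, and both have pseudogenes in the tables (3 for RPL41 and 30 for RPS26).

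HNRNPA1 (ENSG00000135486, 54280193 to 54287088, plus strand), a nuclear ribonucleoprotein that acts in splicing, had 2105, 265 and 364 FPKM in G3C2 replicates 1, b and c, against 1498, 283 and 184 FPKM in WT. Its differences were 0.49, -0.09 and 0.98, so the line with the higher value changed in replicate b. HNRNPA1 has 74 pseudogenes of its name in the tables, the most of any member. NACA (ENSG00000196531, 56712428 to 56731628, minus strand), the alpha subunit of the nascent polypeptide-associated complex, had 706, 44.0 and 59.7 FPKM in G3C2 replicates 1, b and c, against 493, 42.4 and 31.0 FPKM in WT. Its differences were 0.52, 0.05 and 0.92, with a mean of 0.50 ± 0.44 (SD over the 3 pairs). The gap in replicate b was close to 0. EIF4B, a cofactor of the translation initiation helicase, had 625, 81.5 and 86.3 FPKM in G3C2 replicates 1, b and c, against 401, 80.1 and 72.8 FPKM in WT. Its differences were 0.64, 0.02 and 0.24, widest in replicate 1 and near 0 in b. PA2G4, a growth-regulated protein found at ribosomes, had 195, 36.7 and 82.6 FPKM in G3C2 replicates 1, b and c, against 200, 39.8 and 23.5 FPKM in WT. Its differences of -0.04, -0.11 and 1.77 are above 0 in replicate c only.

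Of the 21 transcription and chromatin members, 14 were higher in all 3 pairs and none lower, with median differences of 0.39, 0.34 and 0.14. The last value is close to the 0.10 of all tested protein-coding genes in replicate c. BAZ2A (ENSG00000076108, 56595596 to 56636816, minus strand), a subunit of the nucleolar remodelling complex that silences ribosomal DNA, had 125, 22.0 and 17.5 FPKM in G3C2 replicates 1, b and c, against 90.4, 13.8 and 14.1 FPKM in WT. Its differences were 0.46, 0.63 and 0.29, with a mean of 0.46 ± 0.17 (SD over the 3 pairs). SP1, the zinc finger factor that binds the GC box, had 69.4, 21.3 and 18.7 FPKM in G3C2 replicates 1, b and c, against 52.1, 16.3 and 14.1 FPKM in WT, and its differences of 0.41, 0.36 and 0.39 were the most alike of these genes. RARG, the gamma retinoic acid receptor, had differences of 1.06, 0.65 and 0.52, and NAB2, a corepressor of EGR factors, had 0.93, 0.59 and 0.48. In both, replicate 1 was the widest.

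CBX5 (ENSG00000094916, 54230940 to 54280133, minus strand), heterochromatin protein 1 alpha, had 93.1, 16.6 and 10.8 FPKM in G3C2 replicates 1, b and c, against 70.7, 12.9 and 10.1 FPKM in WT. Its differences were 0.39, 0.33 and 0.09, with a mean of 0.27 ± 0.16 (SD over the 3 pairs). In the second table, G3C2 replicate c lay below WT replicate b, so the genotypes overlapped there. STAT6 (ENSG00000166888, 57095408 to 57132139, minus strand), the transcription factor downstream of interleukin-4, had 73.9, 22.8 and 20.1 FPKM in G3C2 replicates 1, b and c, against 74.5, 20.5 and 24.1 FPKM in WT. Its differences of -0.01, 0.15 and -0.25 were near 0 and of mixed sign. STAT6 overlaps exons of LRP1 and NAB2 on the opposite strand, and the sources used here do not give whether counting used strand. GLI1, a transcription factor of the Hedgehog pathway, had 0.30, 0.31 and -0.33, turning over in replicate c.

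Surface receptors, ligands and signalling proteins had the largest medians in replicates 1 and b, at 0.63 and 0.55, and a median of 0.04 in replicate c. Of the 14, 6 were higher in all 3 pairs and none lower. LRP1 (ENSG00000123384, 57128493 to 57213351, plus strand), a large endocytic receptor of the LDL receptor family, had 135, 29.6 and 10.6 FPKM in G3C2 replicates 1, b and c, against 71.0, 12.1 and 16.7 FPKM in WT. The G3C2 value was the higher one in replicates 1 and b and the lower one in replicate c, with differences of 0.91, 1.22 and -0.61. AGAP2, a GTPase-activating protein for ARF GTPases, turned in the same way, with 1.66, 0.95 and -0.83. IGFBP6 (ENSG00000167779, 53097436 to 53102345, plus strand), a secreted binding protein for insulin-like growth factor 2, had 25.1, 31.5 and 28.0 FPKM in G3C2 replicates 1, b and c, against 9.52, 21.2 and 20.1 FPKM in WT. Its differences were 1.31, 0.55 and 0.46, with a mean of 0.77 ± 0.47 (SD over the 3 pairs). G3C2 was higher in each table without overlap.

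GDF11 (ENSG00000135414, 55743280 to 55757278, plus strand), a secreted ligand of the TGF-beta family, had 35.9, 30.1 and 11 FPKM in G3C2 replicates 1, b and c, against 14.1, 18.6 and 7.32 FPKM in WT. Its differences were 1.29, 0.66 and 0.53, with a mean of 0.83 ± 0.41 (SD over the 3 pairs). The genotypes overlapped in the second table, where G3C2 replicate c lay below WT replicate b. ACVR1B, a type I receptor for activin and for ligands such as GDF11, had differences of 0.50, 0.54 and 0.43. CTDSP2 (ENSG00000175215, 57819927 to 57846739, minus strand), a phosphatase of the small C-terminal domain phosphatase family, had 262, 62.8 and 43.2 FPKM in G3C2 replicates 1, b and c, against 149, 51.9 and 41.2 FPKM in WT. Its differences of 0.81, 0.27 and 0.07 were all above 0, with an overlap of the genotypes in the second table. RNF41, an E3 ubiquitin ligase that acts on ERBB receptors, had 44.8, 11.4 and 13.1 FPKM in G3C2 replicates 1, b and c, against 28.7, 7.23 and 7.10 FPKM in WT, or 0.63, 0.60 and 0.80.

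Mitochondrial and metabolic members lay closer to the background than most lists. Of 19, 6 were higher in all 3 pairs and 1, METTL7B, was lower, with medians of 0.17, 0.12 and 0.16. The 6 were ATP5MC2, COQ10A, CS, ATP5F1B, SHMT2 and B4GALNT1. ATP5F1B (ENSG00000110955, 56638175 to 56646068, minus strand), the catalytic beta subunit of the mitochondrial ATP synthase, had 1372, 404 and 515 FPKM in G3C2 replicates 1, b and c, against 827, 285 and 176 FPKM in WT. Its differences were 0.73, 0.50 and 1.54, with a mean of 0.92 ± 0.55 (SD over the 3 pairs). ATP5MC2 (ENSG00000135390, 53632726 to 53677408, minus strand), a gene for the c subunit of the rotor ring of that enzyme, had 228, 50.4 and 68.7 FPKM in G3C2 replicates 1, b and c, against 131, 40.2 and 28.4 FPKM in WT. Its differences were 0.79, 0.32 and 1.24, with a mean of 0.78 ± 0.46 (SD over the 3 pairs). Both ATP synthase genes were higher in G3C2 in each table without overlap. CS (ENSG00000062485, 56271699 to 56300392, minus strand), citrate synthase of the tricarboxylic acid cycle, had 373, 42.4 and 61.4 FPKM in G3C2 replicates 1, b and c, against 304, 38.1 and 27.3 FPKM in WT. Its differences were 0.29, 0.15 and 1.14, with a mean of 0.53 ± 0.53 (SD over the 3 pairs). Replicate c again had the widest gap of the 3 pairs.

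Of the 13 members for membrane traffic, the endoplasmic reticulum and lysosomes, 8 were higher in all 3 pairs and 1 lower, with medians of 0.33, 0.34 and 0.63. CD63 (ENSG00000135404, 55725323 to 55729707, minus strand), a tetraspanin of late endosomes and exosomes, had 523, 248 and 214 FPKM in G3C2 replicates 1, b and c, against 304, 160 and 135 FPKM in WT. Its differences were 0.78, 0.63 and 0.66, with a mean of 0.69 ± 0.08 (SD over the 3 pairs). The pairs were nearly equal in size. Its exons overlap an antisense RNA with a mean of 5.01 FPKM. ESYT1 (ENSG00000139641, 56118250 to 56144671, plus strand), a tether between the endoplasmic reticulum and the plasma membrane, had 207, 50.7 and 62.1 FPKM in G3C2 replicates 1, b and c, against 162, 41.3 and 39.9 FPKM in WT. Its differences were 0.35, 0.29 and 0.63, with a mean of 0.42 ± 0.18 (SD over the 3 pairs). COPZ1 (ENSG00000111481, 54301202 to 54351849, plus strand), a subunit of the coatomer of COPI vesicles, had 188, 32.0 and 41.6 FPKM in G3C2 replicates 1, b and c, against 203, 32.0 and 24.5 FPKM in WT. Its differences of -0.11, 0.00 and 0.74 are above 0 in replicate c only. CALCOCO1, a protein linked to autophagy of the endoplasmic reticulum, had 0.39, 0.49 and -1.34, the lowest value of any member in replicate c. LETMD1 (ENSG00000050426, 51047962 to 51060424, plus strand), a protein with a LETM1-like domain, had 38.7, 5.48 and 6.40 FPKM in G3C2 replicates 1, b and c, against 46.7, 6.01 and 6.66 FPKM in WT. It was lower in G3C2 in each pair, by small amounts (-0.27, -0.11 and -0.05), and the genotypes overlapped in the second table. LETMD1 is the 1 lower member of this list, and its place there is uncertain, since it may belong with the mitochondrial genes.

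The 8 cytoskeleton and motor members had medians of 0.36, 0.32 and 0.36, with 4 higher in all 3 pairs and none lower. MYL6 (ENSG00000092841, 56158161 to 56163496, plus strand), a non-muscle myosin essential light chain, had 315, 84.9 and 143 FPKM in G3C2 replicates 1, b and c, against 160, 63.9 and 47.9 FPKM in WT. Its differences were 0.97, 0.41 and 1.56, with a mean of 0.98 ± 0.58 (SD over the 3 pairs). Its neighbour MYL6B, with which it shares exon positions, had 0.61, 0.47 and 0.59. TNS2 (ENSG00000111077, 53046969 to 53064372, plus strand), a focal adhesion protein of the tensin family, had 23.9, 14.1 and 7.0 FPKM in G3C2 replicates 1, b and c, against 11.1, 7.35 and 5.09 FPKM in WT. Its differences were 1.04, 0.85 and 0.39, with a mean of 0.76 ± 0.33 (SD over the 3 pairs). The genotypes overlapped in the second table. DCTN2 (ENSG00000175203, 57530102 to 57547331, minus strand), a subunit of the dynactin complex, had 190, 35.9 and 40.6 FPKM in G3C2 replicates 1, b and c, against 132, 31.8 and 32.2 FPKM in WT. Its differences were 0.52, 0.17 and 0.33, with a mean of 0.34 ± 0.18 (SD over the 3 pairs). LIMA1 (ENSG00000050405, 50175788 to 50283546, minus strand), an actin cross-linking protein, had 74.6, 16.4 and 37.4 FPKM in G3C2 replicates 1, b and c, against 125, 20.2 and 21.7 FPKM in WT. Its differences of -0.73, -0.29 and 0.76 ran the other way in replicates 1 and b, and it lies among the early members before ACVR1B.

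Among 5 members for chaperones, genome maintenance and division, 4 were higher in all 3 pairs, with medians of 0.37, 0.24 and 1.07. PTGES3 (ENSG00000110958, 56663341 to 56688408, minus strand), the HSP90 cochaperone p23, had 313, 92.0 and 155 FPKM in G3C2 replicates 1, b and c, against 222, 77.6 and 56.7 FPKM in WT. Its differences were 0.49, 0.24 and 1.44, with a mean of 0.73 ± 0.63 (SD over the 3 pairs). PFDN5 (ENSG00000123349, 53295291 to 53299450, plus strand), a subunit of the prefoldin chaperone, had 223, 38.4 and 49.6 FPKM in G3C2 replicates 1, b and c, against 146, 27.1 and 23.1 FPKM in WT. Its differences were 0.61, 0.49 and 1.07, with a mean of 0.72 ± 0.31 (SD over the 3 pairs). NABP2 (ENSG00000139579, 56222015 to 56229854, plus strand), a single-stranded DNA-binding protein of the SOSS complex, had 46.3, 22.9 and 31.3 FPKM in G3C2 replicates 1, b and c, against 36.3, 20.3 and 11.3 FPKM in WT. Its differences were 0.34, 0.17 and 1.39, with a mean of 0.63 ± 0.66 (SD over the 3 pairs). In all of these the G3C2 libraries were above WT in each table. The 6 transporters and ion channels had medians of -0.05, 0.29 and 0.03, and 2 were higher in all 3 pairs. SLC11A2 (ENSG00000110911, 50979401 to 51028566, minus strand), the divalent metal transporter DMT1, had 43.1, 5.16 and 5.48 FPKM in G3C2 replicates 1, b and c, against 53.2, 5.74 and 5.44 FPKM in WT. MFSD5 (ENSG00000182544, 53251251 to 53254405, plus strand), a molybdate transporter of the major facilitator superfamily, had 20, 14.9 and 17.1 FPKM in G3C2 replicates 1, b and c, against 17.7, 13.4 and 11.4 FPKM in WT. SLC11A2 had differences of -0.30, -0.13 and 0.01 and MFSD5 of 0.16, 0.15 and 0.54, and the first of these is again an early member. In the 14 members on no list, the largest difference was that of MARCH9, and DAZAP2, a proline-rich protein, had 0.68, 0.39 and 0.64.

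**Figure D4:**
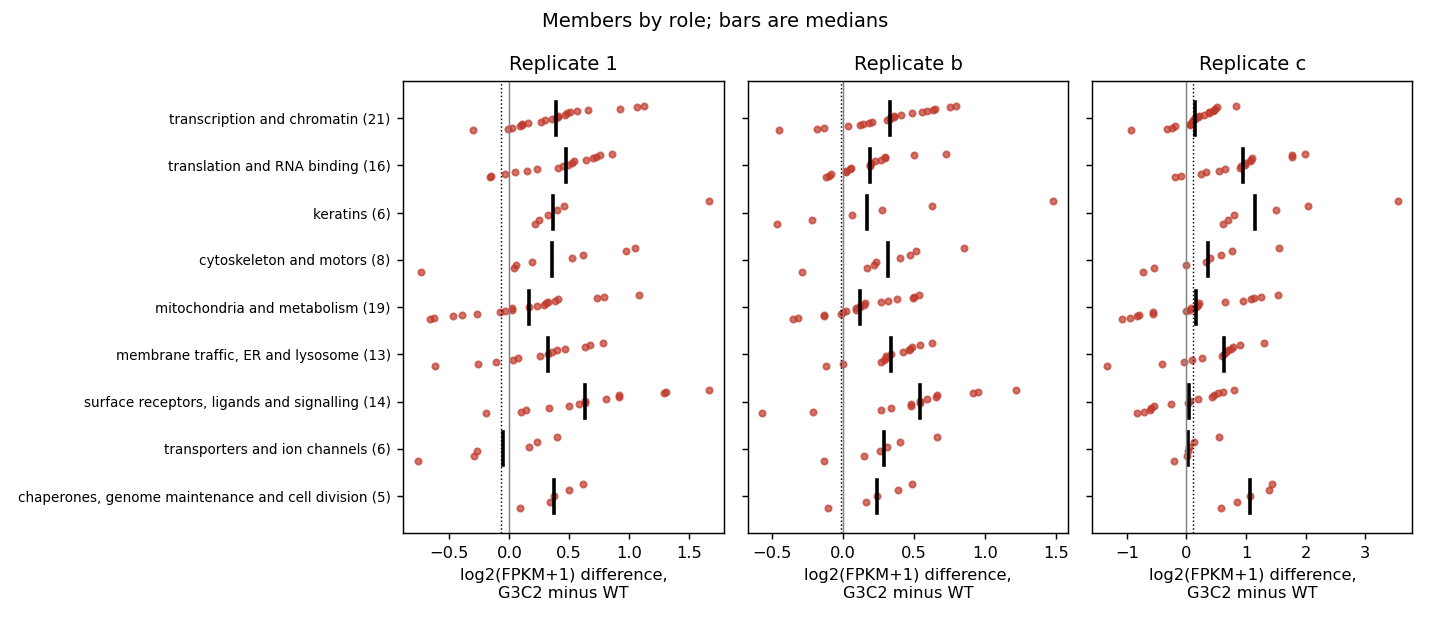
Difference in log2(FPKM + 1), G3C2 minus WT (x axis), of each member (red points) in 9 role lists (rows, number of members in brackets), with 1 panel per replicate label. Black bars are list medians, the grey line marks 0 and the dotted line is the median of all tested protein-coding genes; translation, keratin and chaperone lists have their highest medians in replicate c (0.95, 1.15 and 1.07), while transcription and surface lists have their lowest there (0.14 and 0.04).

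Gene by gene, the differences of replicate 1 were like those of b and unlike those of c. Over the 122 members, Pearson's r between the differences was 0.59 for replicates 1 and b (Spearman's rho 0.55), 0.19 for 1 and c (0.16) and 0.06 for b and c (-0.03). These are descriptions across genes of 1 interval, which share libraries and are not independent, and they carry no test. Of the members that changed sign, 22 were higher in replicates 1 and b and not in c, and 9 were lower in 1 and b and higher in c. The median shift of the members was thus seen in all 3 pairs, while the order of members within it was shared by 2 pairs. From replicate b to c, the median member moved by 0.05 in G3C2 and by -0.13 in WT, close to the 0.06 in G3C2 and -0.08 in WT of all tested protein-coding genes.

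**Figure D5:**
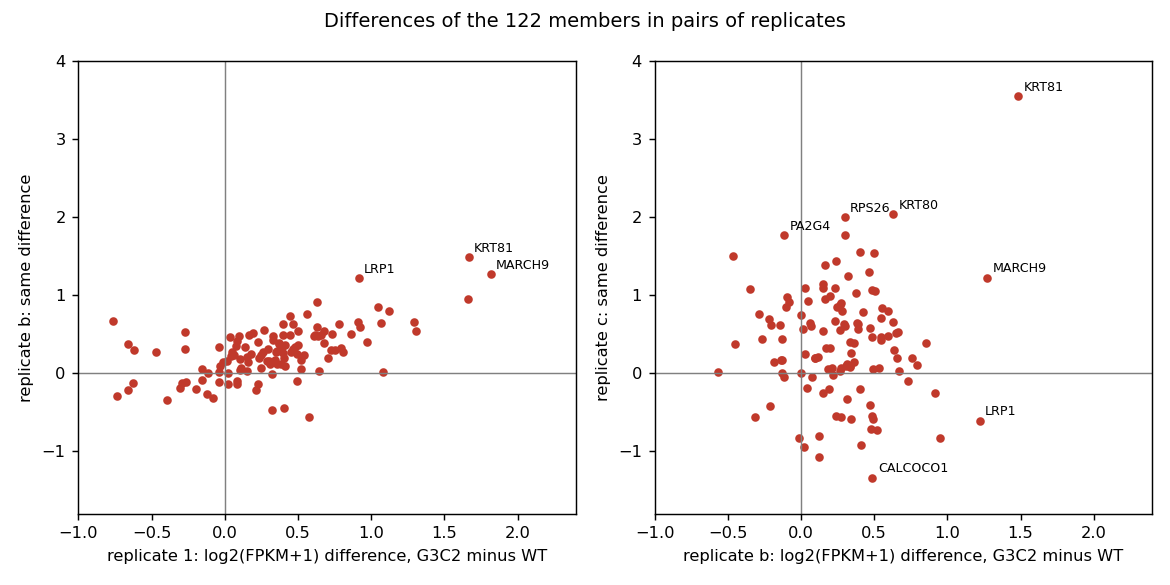
Each of the 122 members (points) by its difference in log2(FPKM + 1), G3C2 minus WT, in replicate 1 (x axis) and b (y axis) on the left, and in replicate b (x axis) and c (y axis) on the right, with grey lines at 0. Points follow a rising band on the left (Pearson's r = 0.59) and show no such band on the right (0.06), where KRT81, RPS26, KRT80 and PA2G4 lie high and CALCOCO1 and LRP1 low in replicate c.

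Head-to-head neighbours did not always move alike. In 5 pairs of members, transcribed from opposite strands, starts lay within 1000 bases of each other. RNF41 had differences of 0.63, 0.60 and 0.80, and NABP2, starting 82 bases away, had 0.34, 0.17 and 1.39. CBX5 had 0.39, 0.33 and 0.09, and HNRNPA1, 60 bases away, had 0.49, -0.09 and 0.98. Both of these pairs were furthest apart in replicate c. NEMP1 had 0.25, 0.23 and 0.68, and NAB2, 831 bases away, had 0.93, 0.59 and 0.48. MAP3K12 had 0.14, 0.34 and -0.59, and TARBP2, 858 bases away, had 0.54, 0.23 and 1.10, of opposite sign in replicate c. CSAD had -0.27, 0.53 and 0.07, and ZNF740 had 0.50, 0.36 and 0.14, of opposite sign in replicate 1.

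Depth was known for the second table only, where the recovered reads came to 26080000 in G3C2 replicate b and 25830000 in c, and to 28960000 in WT replicate b and 22600000 in c. Of the 122 members, 108 had at least 100 reads in each of these 4 libraries. The median member had 1377 reads in G3C2 replicate b and 1163 in c, against 1311 in WT replicate b and 957 in c. The totals behind the FPKM were 26520000 in G3C2 replicate b and 22560000 in c, against 29670000 in WT replicate b and 25410000 in c. In replicate c this total lay below the recovered reads in G3C2 and above them in WT. Scaled to recovered reads, the differences of replicate c would therefore be lower. How much of them this makes up was not tested. Exons of 74 members share positions with another annotated gene, 65 of them with a gene of the opposite strand, and 47 with a gene of at least 1 FPKM. Their split of reads is uncertain, since the sources used here give neither the strand setting nor the handling of shared reads.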

How the data were processed

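Gene values of 6 poly(A) RNA libraries were deposited by the authors in 2 tables of FPKM. CASAVA, HISAT2 and the build GRCh38.p12 are listed in the submitters' processing notes, with no tool versions. The sources used here give no counter, annotation or strand setting. The tables listed 60448 and 59108 identifiers, 56982 of them in both, and 56868 matched GENCODE 29. The scales differed: summed FPKM over shared genes was 711413 in G3C2 and 703837 in WT in the first table, and between 232757 and 316551 per library in the second. Each genotype difference was therefore taken within a table.

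From these, log2(FPKM + 1) was computed, which understates changes of genes with low values. Tested genes had 1 FPKM or more in 2 or more libraries. limma 3.58.1 in R 4.3.3 was fitted over 15001 genes with terms for genotype and table, a variance trend and a Benjamini-Hochberg threshold of 0.05, and was tested on simulated data. Its p-values measure only how these libraries vary, which may be partly technical. The fold change equals the mean of the 3 pair differences.

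FPKM steps of the second table gave whole reads within 0.02 reads for 97.3 to 97.4% of values, with GENCODE 29 exon lengths. For replicate 1, 34.0 to 35.6% came out whole, and its depth is unknown. limma-voom on the recovered reads called no member and no gene.

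Libraries of the same label were taken as pairs, as in the rule that chose the interval. They deviated together from their group means (r = 0.934, 0.801 and 0.595 in replicates 1, b and c), but separately scaled tables alone give such values. Within the second table, r between the b and c changes of both genotypes was -0.165. The values thus give no ground for matching b with b and c with c. Blocking on the replicate label was an alternative.

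Named genes were up to 12 members that rose most and 8 that fell most, with the same sign in all 3 pairs and a mean of at least 5 FPKM, up to 3 of the highest mean FPKM in each of 9 role lists, and those at the edges of the interval and of the threshold. Members and lists were chosen with earlier results of these data known. Other alternatives were a pseudocount of 0.1, other filters and scalings, no table term, the second table alone, and each pair or library left out. Start-site sequences were taken from RefSeq (GRCh38.p14). Python 3.11.15 with pandas 2.3.3, numpy 2.4.6 and matplotlib 3.10.9 was used.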

Additional observations from a re-analysis of the deposited data

How the results depend on the processing

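The median mean difference of the members, 0.29, was 0.31 with a pseudocount of 0.1, 0.32 with equal medians, 0.23 with quantile normalization, 0.28 without the keratins and 0.27 to 0.35 with a replicate pair left out. It was 0.06 over 205 genes with no filter on low values, 0.37 over the 98 with a mean of at least 5 FPKM, 0.38 over the members from ACVR1B to LRIG3 and 0.05 over those before ACVR1B. The last 2 sets, the removal of the keratins, the voom fit and an exchange of WT replicates b and c were added after seeing the data. Of the 122 members, those higher in all pairs numbered 65 with a pseudocount of 0.1, 68 with equal medians and 58 with quantile normalization. They numbered 74 to 87 with a pair left out (fewer pairs have to match) and 63 with WT replicates b and c exchanged. Other filters changed the set itself: 72 of 205 genes with no filter and 57 of 98 at a mean of at least 5 FPKM were higher. Lower in all pairs were 7 of the 205 and 1 of the 98, and 4 to 12 of the 122 with a pair left out. Shares over all tested genes were not counted in these settings.

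limma called between 0 and 24 members higher with a pair or library left out: 24 without replicate c, 2 without replicate b and none without replicate 1 or any single library. It called none lower in any setting. The fit with a replicate block in place of the table term called 0 members in either direction, with 33 higher at an unadjusted p under 0.05. When the table term was dropped, when only the second table was used and with voom on recovered reads, none was called, and 2, 16 and 14 were higher at an unadjusted p under 0.05. The share of all genes at that p was not counted in these fits or the block fit, so nothing is read from these counts. The 38 named genes gave 682 alternative values, of which 668 lay within 1 SD of the pair differences, 14 moved further and 30 differed in sign. The causes were not tested. The count of 668 is no measure of stability. Leaving out a pair cannot move a mean by that SD. Fits with a replicate block, no table term or another filter return the same fold change by design. Pair counts with a single library left out were not run, since that breaks a pair.

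Depth limits members near 1 FPKM most, and no depth was recovered for replicate 1. With 3 pairs, 1 of them in a table of its own, and no edited line beside G3C2, the error of each member is known only coarsely.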
